A study of Rattus norvegicus with 40 samples.

Results

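The 10 genes described here belong to the oligodendrocyte lineage: Pdgfra, Cspg4, Gpr17, Vcan, Bcas1, Olig1, Sox10, Ugt8, Tmem63a and Slc44a1. They were taken by name, with earlier results of these data known. Each was read from the probe set whose only symbol in the platform annotation was that gene. All 10 were measured, each by 1 probe set, of 29214 probe sets and 14506 genes with a probe set of their own. The study measured hippocampal RNA of rats exposed to lead during development, on 40 Affymetrix whole-transcript arrays, 1 per animal label and 4 per group. Exposed rats were female or male and received chow with 750 ppm or 250 ppm lead acetate over a postnatal or a perinatal window, which makes 8 exposed groups. Female and male controls, the other groups, ate chow without lead. Perinatal exposure ran through the dams' food, which held lead from 10 days ahead of mating up to weaning. Postnatal exposure lasted from birth to postnatal day 45. All animals returned to or stayed on control chow and were killed at postnatal day 55, and 100 ng of total RNA was labelled per array. No strain is given in the sources used here, and nothing in the labels says which animals came from separate litters, so the p-values measure only the spread between these samples.

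Oligodendrocytes make the myelin sheaths of the central nervous system and arise from precursor cells that persist in the adult brain. The precursors carry the receptor for platelet-derived growth factor (Pdgfra) and the NG2 proteoglycan (Cspg4). On commitment to differentiation they lose both, pass through a stage marked by Gpr17 and Bcas1, and then switch on the enzymes and transporters of myelin lipid synthesis. The transcription factors Olig1 and Sox10 are present along the whole lineage.

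Values are log2 signals as deposited, on which a difference of 1 is a doubling, and a level is compared only between arrays, never between genes. The mean levels of the 10 probe sets lay between percentiles 63.3 (Tmem63a) and 95.6 (Slc44a1) of all probe sets. Array medians lay between 6.96 and 7.06 and correlations between arrays between 0.985 and 0.997. The X-linked transcript Eif2s3 reached at most 11.42 in exposed males and was at least 11.62 in exposed females, and 3 controls fell on the other side of that gap from their label: replicates 1 and 3 labelled female control, and replicate 4 labelled male control. Controls are therefore named below by their label. Male 250 ppm perinatal replicates 1 and 3 and male 750 ppm perinatal replicate 1 had a flatter signal profile than the other arrays, with a slope against the mean array, less 1, of -0.0191 or lower, where no other array went below -0.0132. The animal numbers in the titles ran from 1970 to 1981 for female 750 ppm perinatal animals and for both control groups, from 3444 to 3447 for male 750 ppm perinatal animals, and from 2821 to 2876 for the other 6 exposed groups. For the 7 exposed groups outside the controls' run, exposure and the run of numbers cannot be told apart. The same holds for comparisons between exposed groups that involve 750 ppm perinatal animals of either sex.

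The RefSeq promoter table (build GRCr8) held windows from 250 bases before to 50 bases after the annotated start for 7 of the 10 genes, with no entry matched for Bcas1, Olig1 and Sox10. The 4 windows shown here belong to genes that passed the test in a comparison below, and were searched on both strands for the E-box letters CAGCTG and CATATG, which basic helix-loop-helix factors such as OLIG proteins can bind, and for the SOX-type letters ACAAAG and ACAATG. Capitals mark each match, and CTTTGT is ACAAAG read on the other strand. Both E-box motifs read the same on either strand, and no matches overlap.
Gpr17 (chr18:23857332-23857631, minus strand): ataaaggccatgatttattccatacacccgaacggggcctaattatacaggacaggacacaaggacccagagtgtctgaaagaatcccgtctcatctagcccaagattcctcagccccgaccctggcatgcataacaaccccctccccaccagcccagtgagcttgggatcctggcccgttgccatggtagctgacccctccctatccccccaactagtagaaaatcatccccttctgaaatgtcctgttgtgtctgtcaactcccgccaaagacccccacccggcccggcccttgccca
Ugt8 (chr2:217007118-217007417, minus strand): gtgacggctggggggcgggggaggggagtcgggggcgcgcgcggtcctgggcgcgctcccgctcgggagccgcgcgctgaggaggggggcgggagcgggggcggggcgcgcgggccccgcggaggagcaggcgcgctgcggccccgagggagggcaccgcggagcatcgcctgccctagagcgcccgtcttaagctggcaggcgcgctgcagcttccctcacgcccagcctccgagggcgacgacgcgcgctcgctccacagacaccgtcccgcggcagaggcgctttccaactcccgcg
Slc44a1 (chr5:72858750-72859049, plus strand): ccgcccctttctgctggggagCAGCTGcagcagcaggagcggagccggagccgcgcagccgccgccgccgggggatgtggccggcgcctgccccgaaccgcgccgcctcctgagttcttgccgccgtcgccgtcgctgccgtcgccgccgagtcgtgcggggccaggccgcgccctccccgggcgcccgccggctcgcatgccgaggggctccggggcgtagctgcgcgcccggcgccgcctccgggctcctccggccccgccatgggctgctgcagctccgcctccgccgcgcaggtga
Tmem63a (chr13:95194960-95195259, plus strand): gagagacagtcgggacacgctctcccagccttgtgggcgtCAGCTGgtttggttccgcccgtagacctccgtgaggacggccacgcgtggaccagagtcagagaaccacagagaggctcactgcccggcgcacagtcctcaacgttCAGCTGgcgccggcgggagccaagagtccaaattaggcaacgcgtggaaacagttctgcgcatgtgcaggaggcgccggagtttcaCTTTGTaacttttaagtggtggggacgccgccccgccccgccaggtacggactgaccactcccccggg
CAGCTG occurred once in the Slc44a1 window, at position -229 from the start. The Tmem63a window held it at positions -210 and -104, and ACAAAG on the opposite strand at position -18. Both windows lie inside the annotated genes, which begin at bases 72857323 (Slc44a1) and 95194323 (Tmem63a). Their positions thus count from a start within the gene. The Gpr17 and Ugt8 windows held none of the 4 motifs. Over the 8 windows of the 7 genes (Vcan has 2), CAGCTG was in 2 and a SOX-type motif in 1, against 15.1% and 29.1% of all 33469 promoters of this length. CATATG and ACAATG were in none of the 8, against 4.11% and 13.2% of all promoters. The GC content was 56.0% in the Gpr17 window, 79.3% in Ugt8, 80.7% in Slc44a1 and 63.7% in Tmem63a, where the median promoter had 51.7%. These are counts of letters and say nothing about binding.

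Taken over all 8 exposed groups, lineage genes were higher than in controls by a small amount. Gpr17, Slc44a1, Olig1 and Ugt8 rose, by 0.15 to 0.26 on the log2 scale (1.11- to 1.20-fold), and all 10 differences were above 0, as were 51.7% of those of all probe sets. In the limma fit over 29214 probe sets, 4 of the 10 genes were called at an adjusted p under 0.05, all of them higher, where 0.38% of all probe sets were called and 0.301% were called higher. Because the genes were chosen with earlier results of these data known, this and the later shares are no independent test of the set. The median difference of the 10 genes was 0.14, and that of all probe sets 0.002. At an unadjusted p under 0.05, 9 of the 10 were higher, where 4.92% of all probe sets were. In bulk tissue, more cells of the lineage and more RNA per cell cannot be told apart.

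Gpr17, a receptor of the P2Y-like family found on committed precursors, had a lowest, median and highest level of 9.26, 9.45 and 9.68 in the 32 exposed arrays and of 9.08, 9.25 and 9.41 in the 8 controls. Of the exposed arrays, 21 lay above every control. The difference was 0.19 (SE 0.0384, limma adjusted p = 0.0158). Gpr17 was also the member whose difference varied least between regimens: it was 0.20 for 750 ppm postnatal, 0.18 for 250 ppm postnatal, 0.19 for 750 ppm perinatal and 0.20 for 250 ppm perinatal animals against the same controls.

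Olig1, a basic helix-loop-helix factor needed for myelin repair in mice, ranged from 9.82 to 10.37 with a median of 10.07 in exposed arrays, and from 9.76 to 9.98 with a median of 9.90 in controls. Here 23 of 32 exposed arrays exceeded all controls, and the difference was 0.19 (SE 0.0425, limma adjusted p = 0.0365). Ugt8, which makes galactosylceramide, a main lipid of myelin, ranged from 10.10 to 10.89 (median 10.56) in exposed arrays and from 10.23 to 10.38 (median 10.27) in controls. With 25 exposed arrays above every control, it had the widest separation of the 10 genes, yet its lowest values were also on exposed arrays. Its difference was 0.26 (SE 0.0598, limma adjusted p = 0.041).

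Slc44a1, a choline transporter that feeds phosphatidylcholine synthesis, ranged from 10.98 to 11.32 (median 11.14) in exposed arrays and from 10.94 to 11.15 (median 10.98) in controls. The control maximum came from a single array, replicate 2 labelled female control at 11.15, and the other 7 controls did not exceed 11.00. The difference was 0.15 (SE 0.0305, limma adjusted p = 0.0191).

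The other 6 genes did not pass the test over all exposed arrays. Vcan, the proteoglycan versican, differed by 0.15 (95% confidence interval 0.06 to 0.23, limma adjusted p = 0.154) and Pdgfra by 0.10 (0.04 to 0.17, 0.242). Sox10 differed by 0.12 (0.03 to 0.21, 0.425), Bcas1 by 0.12 (0.02 to 0.22, 0.462) and Cspg4 by 0.11 (0.03 to 0.20, 0.406). Tmem63a, a mechanosensitive ion channel of oligodendrocytes, differed by 0.13 with an interval of -0.02 to 0.28 (adjusted p = 0.751), the only one of the 10 intervals that included 0. The mean level of the 10 genes on an array ran from 9.38 to 9.77 in exposed arrays (median 9.54) and from 9.31 to 9.44 in controls (median 9.40), and 27 of 32 exposed arrays lay above all controls.

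**Figure D1:**
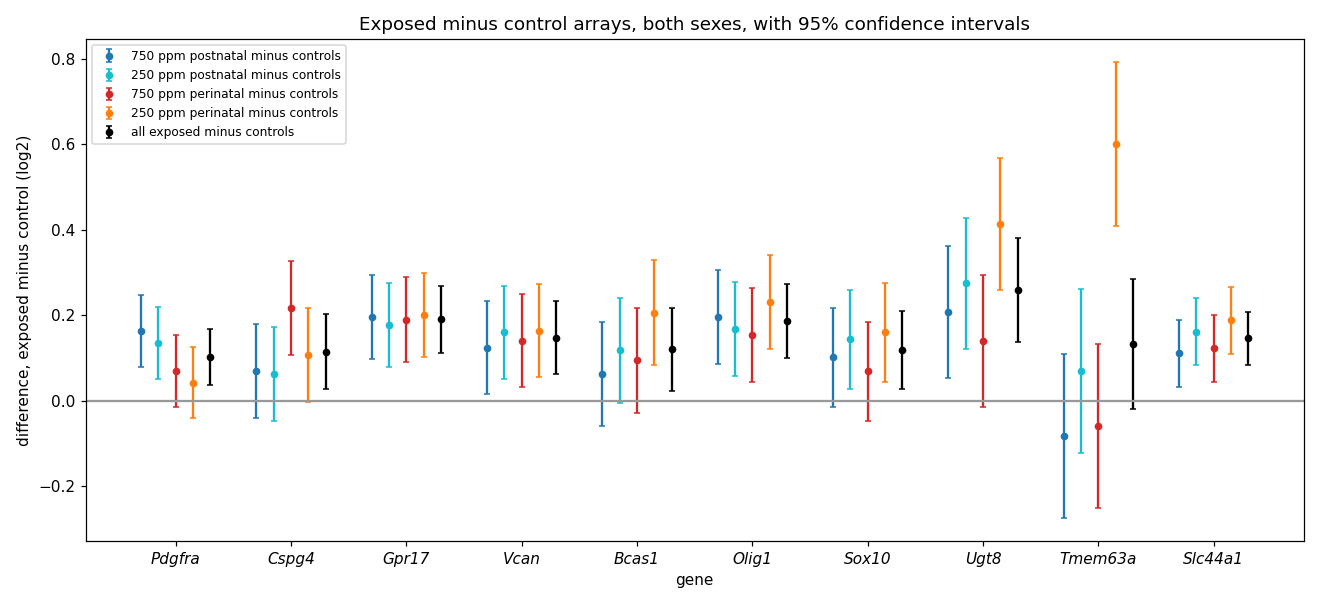
Difference in log2 signal of each gene, both sexes together, for each exposure regimen minus the 8 controls and for all exposed arrays minus the same controls. Points are limma estimates and bars are 95% confidence intervals. Gpr17 sits between 0.18 and 0.20 in every regimen, while Tmem63a is at 0.60 for 250 ppm perinatal exposure and between -0.083 and 0.070 for the others.

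The 4 calls over all exposed arrays depended on which arrays were used. Without the 3 controls whose sex-linked transcript did not match their label, the differences were 0.21 for Gpr17, 0.22 for Olig1, 0.28 for Ugt8 and 0.13 for Slc44a1, with limma adjusted p of 0.0852, 0.101, 0.16 and 0.259, and none of the 10 was called. With each of the 40 arrays left out in turn, all 4 genes were called in 23 fits. In the other 17, fewer were called: 0 were called without replicate 3 labelled male control or replicate 4 labelled female control, 1 without male control replicate 2 or female control replicate 3, 2 without male control replicate 1 or female control replicate 2, and 3 without either of the other controls or any of 9 exposed arrays. Gpr17 was called in 38, Slc44a1 in 36, Olig1 in 34 and Ugt8 in 23 of the 40 fits. Without the 3 flattened arrays the same number, 4, was called, with differences of 0.19, 0.20, 0.28 and 0.15 for Gpr17, Olig1, Ugt8 and Slc44a1. The difference of Tmem63a was 0.05 without the 3 mismatched controls.

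**Figure D2:**
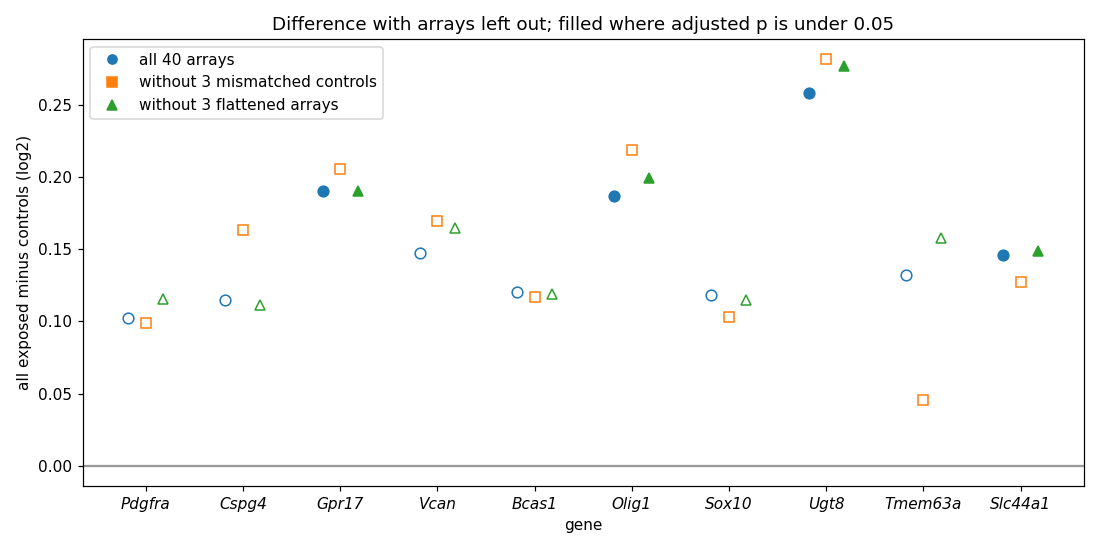
Difference in log2 signal over all exposed arrays minus controls for each gene, with all 40 arrays, without the 3 controls whose Eif2s3 level did not match their label, and without the 3 flattened arrays. Filled symbols have a limma adjusted p under 0.05: 4 genes with all arrays, 0 once those controls and 4 once the flattened arrays are left out.

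The regimens differed in how many of the genes passed. With both sexes together, 5 of 10 genes were called in 250 ppm perinatal animals, all higher, where 0.452% of all probe sets were called. Exposure and the run of animal numbers cannot be told apart in these animals. Tmem63a rose by 0.60 (1.52-fold), Ugt8 by 0.41 (1.33-fold), Olig1 by 0.23, Gpr17 by 0.20 and Slc44a1 by 0.19. For Tmem63a and Ugt8, all 8 exposed arrays lay above all 8 controls, which held for 0.123% of probe sets. At an unadjusted p under 0.05, 8 of 10 were higher, where 5.68% of probe sets were.

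Tmem63a read 8.63, 8.27, 8.62 and 8.26 in female and 8.22, 8.83, 8.57 and 8.56 in male 250 ppm perinatal animals. In controls it read 7.97, 8.09, 7.60 and 7.95 (labelled female) and 8.11, 7.91, 7.82 and 7.72 (labelled male). The lowest exposed array, 8.22, was thus above the highest control, 8.11, and the both-sex difference had an SE of 0.0944 and a limma adjusted p of 0.00125. The other 3 regimens did not share this level: female means were 7.77 ± 0.21 (750 ppm postnatal), 8.03 ± 0.10 (250 ppm postnatal) and 7.94 ± 0.30 (750 ppm perinatal), and 7.90 ± 0.21 in controls labelled female (SD, n = 4 each). Male means were 7.85 ± 0.14, 7.90 ± 0.21 and 7.73 ± 0.11 in the same order of regimens, and 7.89 ± 0.16 in controls labelled male. Against controls, Tmem63a differed by -0.083 to 0.070 in these 3 regimens with both sexes together.

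Ugt8 read 10.64, 10.72, 10.89 and 10.78 in female and 10.53, 10.81, 10.62 and 10.64 in male 250 ppm perinatal animals. In controls it read 10.25, 10.23, 10.38 and 10.25 (labelled female) and 10.29, 10.23, 10.35 and 10.33 (labelled male). No values overlapped, and the difference of 0.41 had an SE of 0.0757 and a limma adjusted p of 0.00675. In the other regimens, Ugt8 differed by 0.21 for 750 ppm postnatal, 0.27 for 250 ppm postnatal and 0.14 for 750 ppm perinatal exposure, none of them called.

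Slc44a1 read 11.15, 11.11, 11.16 and 11.17 in female and 11.16, 11.31, 11.24 and 11.17 in male 250 ppm perinatal animals, against 11.00, 11.15, 10.96 and 11.00 in controls labelled female and 10.97, 10.95, 10.94 and 10.99 in controls labelled male. Only the female-labelled control at 11.15 reached into the exposed range (SE 0.0386, limma adjusted p = 0.0164). Olig1 read 10.05, 10.07, 10.22 and 10.11 in these females and 9.96, 10.35, 10.11 and 10.03 in these males, against 9.98, 9.83, 9.91 and 9.89 and 9.76, 9.93, 9.84 and 9.93 in controls labelled female and male. A single exposed array, a male at 9.96, lay below the highest control (SE 0.0538, limma adjusted p = 0.039). Gpr17 had the overlap of male-labelled controls at 9.40 and 9.41 with exposed arrays between 9.33 and 9.68, and passed narrowly (SE 0.0486, limma adjusted p = 0.0493).

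Without the 3 mismatched controls, Tmem63a (0.51) and Ugt8 (0.44) were still called in 250 ppm perinatal animals, both at a limma adjusted p of 0.0331, while Olig1 (0.26, adjusted p = 0.0742), Gpr17 (0.22, 0.106) and Slc44a1 (0.17, 0.108) were not. Without the flattened arrays, Tmem63a (0.68), Ugt8 (0.45), Olig1 (0.27) and Slc44a1 (0.20) were called and Gpr17 (0.19, adjusted p = 0.137) was not. With each of the 16 arrays left out in turn, Tmem63a, Ugt8 and Slc44a1 were called every time, Olig1 in 6 and Gpr17 in 3 of the 16 fits.

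None of the 10 genes was called in the other regimens with both sexes together. The limma counts at an unadjusted p under 0.05 were 6 of 10 for 750 ppm postnatal, 7 for 250 ppm postnatal and 5 for 750 ppm perinatal exposure, all higher, where 4.45%, 3.86% and 4.41% of all probe sets were higher at that level. Called probe sets made up 0.147%, 0.219% and 0.147% of the total. Cspg4 had its largest difference with 750 ppm perinatal exposure, 0.22 (SE 0.0541, limma adjusted p = 0.0923). Pdgfra had its largest with 750 ppm postnatal exposure, 0.16 (SE 0.0412, adjusted p = 0.121), and Slc44a1 came closest to a call with 250 ppm postnatal exposure at 0.16 (adjusted p = 0.0675). All 4 regimens were set against the same 8 controls, so these values are not independent of one another.

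The markers of undifferentiated precursors, Pdgfra and Cspg4, had different patterns over the groups. Pdgfra, the receptor through which PDGF keeps precursors dividing, had a lowest, median and highest level of 9.21, 9.46 and 9.61 in exposed arrays and of 9.27, 9.34 and 9.39 in controls, and 22 of 32 exposed arrays lay above all controls. Its means varied between exposed groups, though limma called no Pdgfra difference between them. The mean was 9.49 ± 0.07, 9.43 ± 0.05, 9.51 ± 0.06 and 9.32 ± 0.09 in female 750 ppm postnatal, 250 ppm postnatal, 750 ppm perinatal and 250 ppm perinatal animals, against 9.33 ± 0.03 in controls labelled female (SD, n = 4 each). In males the means were 9.50 ± 0.13, 9.51 ± 0.06, 9.29 ± 0.06 and 9.42 ± 0.13 in the same order, against 9.33 ± 0.05 in controls labelled male. The lowest Pdgfra groups thus sat at the level of the controls. The mean of the fibroblast list, a cell type that also expresses Pdgfra, was 8.80, 8.28, 8.70 and 8.32 in these female groups and 8.37 in controls labelled female. In males it was 8.61, 8.59, 8.32 and 8.65 in the same order, and 8.42 in controls labelled male. The part of this list in the Pdgfra differences was not tested. Cspg4, the core protein of NG2, ranged from 7.90 to 8.31 (median 8.05) in exposed arrays and from 7.72 to 8.15 (median 7.94) in controls, and only 6 exposed arrays exceeded all controls. Its highest group means were 8.16 ± 0.05 in female and 8.17 ± 0.13 in male 750 ppm perinatal animals, against 7.95 ± 0.17 and 7.94 ± 0.18 in controls labelled female and male.

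Vcan, a proteoglycan of the extracellular matrix that precursors make, ranged from 8.68 to 9.08 (median 8.91) in exposed arrays and from 8.64 to 8.90 (median 8.73) in controls. Its exposed group means all lay between 8.84 and 8.93, against 8.76 ± 0.10 and 8.74 ± 0.11 in controls labelled female and male. Bcas1, a marker of newly formed, myelinating oligodendrocytes, ranged from 10.14 to 10.69 (median 10.33) in exposed arrays and from 10.03 to 10.35 (median 10.26) in controls. It was highest in 250 ppm perinatal animals, at 10.48 ± 0.09 in females and 10.37 ± 0.08 in males, against 10.22 ± 0.13 and 10.21 ± 0.12 in controls labelled female and male. Sox10, which switches on myelin genes, ranged from 9.16 to 9.63 (median 9.44) in exposed arrays and from 9.17 to 9.42 (median 9.33) in controls. For these 3 genes 17, 15 and 19 of 32 exposed arrays lay above every control, so the groups overlapped broadly.

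**Figure D3:**
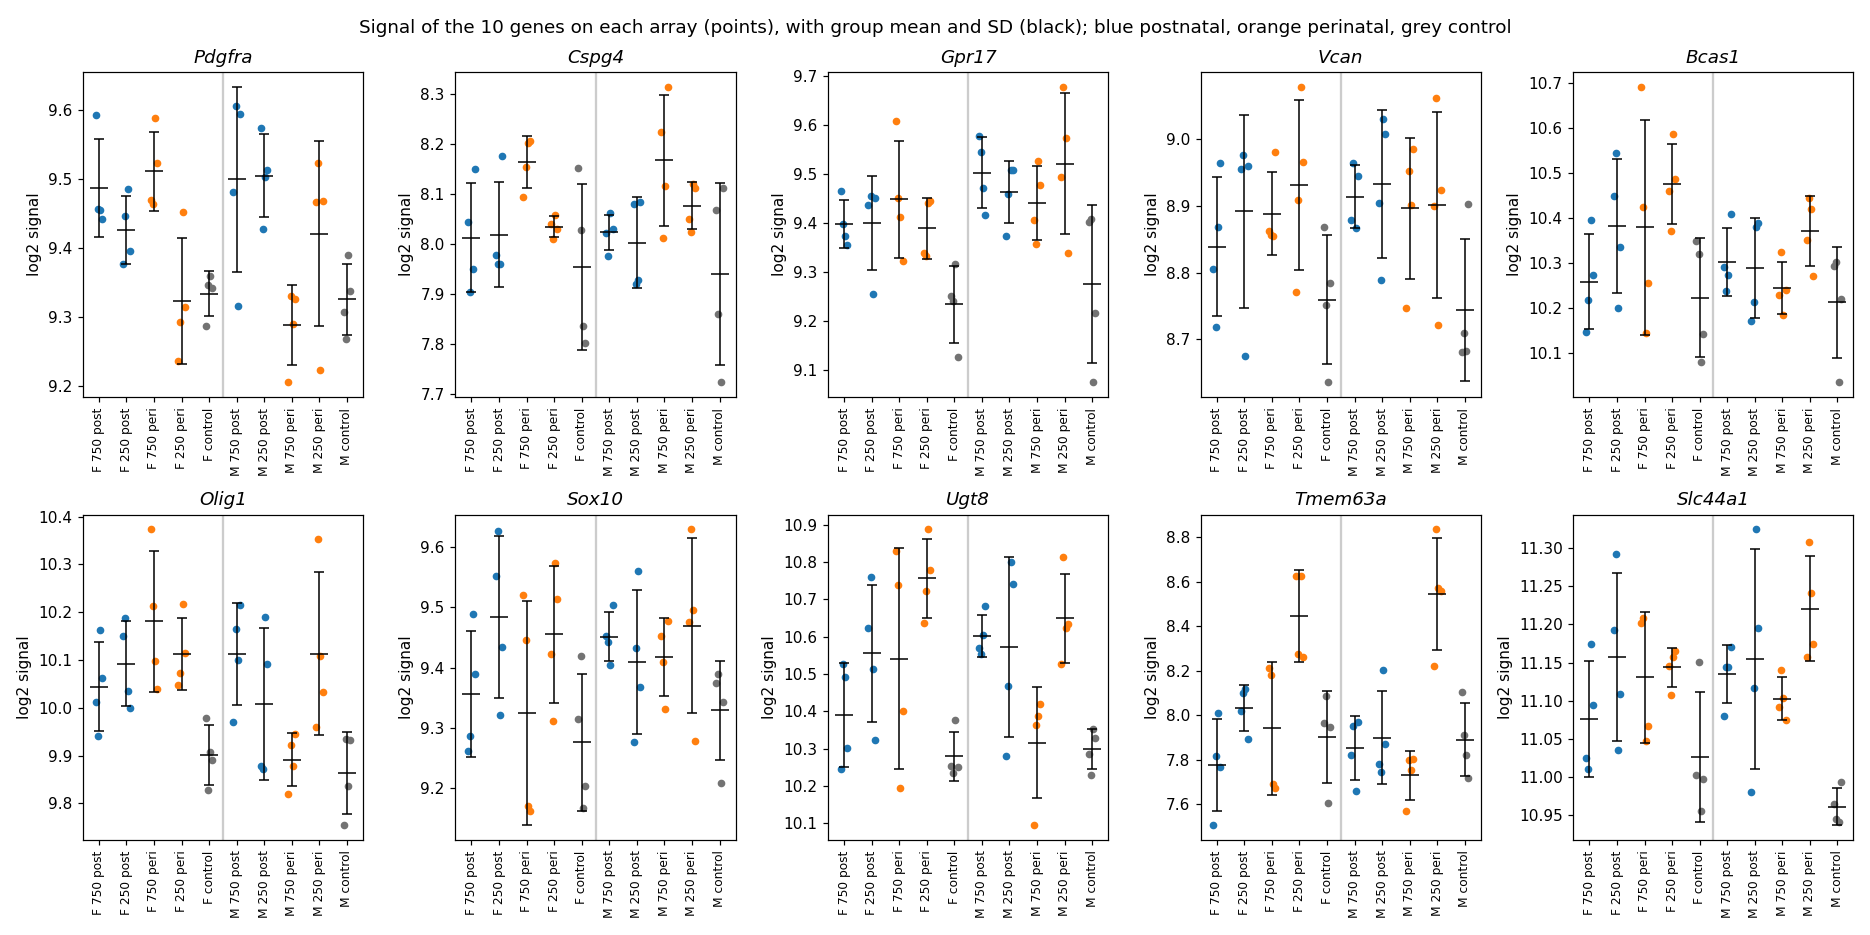
Log2 signal of the 10 genes on each of the 40 arrays, by group, females on the left and males on the right of the grey line. Points are arrays, and black marks are the mean and SD of 4 arrays. Tmem63a sits between 8.22 and 8.83 in both 250 ppm perinatal groups, above all 8 controls, and Slc44a1 lies between 10.94 and 10.99 in controls labelled male.

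Within one sex, 4 arrays were set against 4, and few genes passed. In male 250 ppm perinatal animals, Tmem63a (0.66, SE 0.13, limma adjusted p = 0.0321) and Slc44a1 (0.26, SE 0.0546, adjusted p = 0.0426) rose, 2 of 10 where 0.089% of all probe sets were called. Higher at an unadjusted p under 0.05 were 6 of 10, where 4.33% of probe sets were. All 4 exposed arrays lay above the 4 controls for Olig1, Ugt8, Tmem63a and Slc44a1, which held for 1.64% of probe sets. Neither call held without the mismatched controls (adjusted p = 0.136 for Tmem63a and 0.108 for Slc44a1) or without the flattened arrays (0.0522 and 0.209), and no more than 1 of them was called whichever of the 8 arrays was left out. In female 250 ppm perinatal animals limma called none of the 10, where 0.0171% of probe sets were called. There 8 of 10 were higher at an unadjusted p under 0.05, where 3.52% of probe sets were, and 5 genes did not overlap their controls, where 2.13% did. Ugt8 differed by 0.48 (adjusted p = 0.134) and Tmem63a by 0.55 (adjusted p = 0.21).

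In the other 6 single-sex comparisons limma called none of the 10. At an unadjusted p under 0.05, the counts were 2 for female 750 ppm postnatal, 5 for female 250 ppm postnatal, 5 for female 750 ppm perinatal, 6 for male 750 ppm postnatal, 5 for male 250 ppm postnatal and 3 for male 750 ppm perinatal animals, all higher. In the same order, 2.45%, 2.17%, 3.89%, 3.99%, 3% and 4.71% of all probe sets were higher at that level. Genes whose 4 exposed arrays all lay above the 4 controls numbered 2, 2, 3, 5, 1 and 1, where 1.55%, 1.37%, 2.58%, 2.42%, 1.49% and 2.27% of probe sets did. The shares of all probe sets called in these 6, in the same order, were 0.0137%, 0.0171%, 0.157%, 0.0445%, 0.0342% and 0.0582%. In female 750 ppm perinatal animals, whose numbers run on from those of the controls, Olig1 read 10.37, 10.21, 10.10 and 10.04 against 9.98, 9.83, 9.91 and 9.89 in controls labelled female. No arrays overlapped, and the difference was 0.28 (SE 0.0761, limma adjusted p = 0.203). Set against all 8 controls, Olig1 was called in these animals (adjusted p = 0.0251). Their Pdgfra arrays, at 9.47, 9.46, 9.59 and 9.52, also lay above those of the controls labelled female, at 9.29, 9.35, 9.36 and 9.34 (difference 0.18, adjusted p = 0.447).

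The arrays of female 750 ppm perinatal animals split within the group. Replicates 1 and 2 had the higher levels of Ugt8 (10.83 and 10.74, against 10.19 and 10.40 in replicates 3 and 4), of Tmem63a (8.21 and 8.18, against 7.69 and 7.67) and of Sox10 (9.52 and 9.45, against 9.17 and 9.16). Gpr17, Bcas1, Olig1 and Slc44a1 were also higher in replicates 1 and 2. Pdgfra was lower there (9.47 and 9.46, against 9.59 and 9.52), as was Cspg4 (8.09 and 8.15, against 8.20 and 8.21). Vcan did not split. The within-group SD of Bcas1 was 0.24 there, against 0.06 to 0.15 in the other 9 groups.

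Doses were compared within a sex and window. Among perinatally exposed males, Tmem63a fell to 7.57, 7.80, 7.75 and 7.80 at 750 ppm, against 8.22, 8.83, 8.57 and 8.56 at 250 ppm. The difference was -0.82 (SE 0.13, limma adjusted p = 0.00543), 1 call among the 10 genes where 0.0411% of all probe sets were called. The 750 ppm males carry the numbers 3444 to 3447 and the 250 ppm males 2865 to 2868, so dose and run of numbers cannot be told apart here. It was called whichever of the 8 arrays was left out, at adjusted p up to 0.0499. Without the 3 flattened arrays, which all belong to these groups, it was -0.91 with an adjusted p of 0.0719, and with array weights -0.70 with 0.0928. Ugt8 differed by -0.33, Olig1 by -0.22, Pdgfra by -0.13 and Slc44a1 by -0.12 at an unadjusted p under 0.05, and none of these was called. The 5 genes at that level, Tmem63a included, compare with 5.15% of all probe sets. Among perinatally exposed females, Tmem63a read 8.21, 8.18, 7.69 and 7.67 at 750 ppm and 8.63, 8.27, 8.62 and 8.26 at 250 ppm. The difference of -0.51 (SE 0.13, limma adjusted p = 0.211) was not called, and none of the 10 was, where 0.0856% of probe sets were. There were 2 of 10 at an unadjusted p under 0.05, where 8.02% of probe sets were. These females also come from different runs of numbers, 1978 to 1981 at 750 ppm and 2857 to 2860 at 250 ppm. In females Pdgfra differed in the other direction, at 0.19 (SE 0.0583, adjusted p = 0.317). For Pdgfra and Cspg4, all 750 ppm arrays of these females lay above all 250 ppm arrays, 2 of 10 where 2.84% of probe sets did. Between postnatal doses limma called none of the 10 in either sex, and none had an unadjusted p under 0.05. Of all probe sets, 0% (females) and 0.0103% (males) were called, and 3.66% and 3.82% had such a p.

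Windows were compared within a sex and dose, and limma called none of the 10 in any of these 4 comparisons, where 0.0548% (female 750 ppm), 0.0103% (female 250 ppm), 0.175% (male 750 ppm) and 0.00342% (male 250 ppm) of all probe sets were called. At an unadjusted p under 0.05 the counts were 0, 1, 3 and 1 of 10 in the same order, where 5.07%, 5.98%, 19.4% and 6.36% of all probe sets were. Postnatal minus perinatal, Tmem63a differed by -0.41 (SE 0.13, limma adjusted p = 0.478) in females and by -0.65 (SE 0.13, 0.189) in males at 250 ppm. At 750 ppm in males, the differences were 0.21 for Pdgfra, 0.22 for Olig1 and 0.29 for Ugt8, with limma adjusted p of 0.106, 0.15 and 0.171. The perinatal group of this comparison holds a flattened array, and in both sexes the 750 ppm windows come from different runs of numbers. Leaving out 1 array took the probe sets called in the male comparison to between 15 (without perinatal replicate 1) and 327 (without perinatal replicate 2), against 51 with all arrays.

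The sexes were compared in 2 ways. Female minus male over the exposed groups, limma called none of the 10, where 0.0924% of probe sets were called, and Gpr17 alone had an unadjusted p under 0.05, as did 13.4% of probe sets (-0.073, SE 0.0344, adjusted p = 0.351). In the 4 interactions of sex with exposure, which ask whether the exposed-minus-control difference was larger in females, limma also called none, where 0.0205% of probe sets were called for 750 ppm perinatal exposure and 0% for the others. With 750 ppm perinatal exposure Olig1 (0.25, SE 0.11) and Pdgfra (0.21, SE 0.0824) had an unadjusted p under 0.05, with adjusted p of 0.666 and 0.637, where 7.41% of probe sets did. For 750 ppm postnatal, 250 ppm postnatal and 250 ppm perinatal exposure 0 of 10 did, where 4.25%, 2.3% and 3.35% of probe sets did. For Tmem63a with 250 ppm perinatal exposure the interaction was -0.11, with a 95% confidence interval of -0.50 to 0.27. The interactions rest on the labelled sex of the controls, and at 750 ppm perinatal the exposed females and males come from different runs of numbers.

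The wider oligodendrocyte lineage was read from lists of genes that are not among the 10. The lists, too, were chosen with earlier results of these data known. Of 34 further lineage genes listed, 23 were measured. Over all exposed arrays, where 0.38% of all probe sets were called, 2 of them rose while 0 fell, with a median difference of 0.06. These were Cnksr3, a scaffold protein, which differed by 0.21 (SE 0.0440, limma adjusted p = 0.0166), and Bmp4, a secreted factor that holds back oligodendrocyte differentiation, by 0.23 (SE 0.0499, adjusted p = 0.0288). Enpp6, a choline phosphodiesterase of newly forming oligodendrocytes, differed by 0.28 (SE 0.0704, adjusted p = 0.0777). In 250 ppm perinatal animals, where 0.452% of all probe sets were called, all 3 rose, Enpp6 by 0.42 (adjusted p = 0.0197), Bmp4 by 0.29 (0.0234) and Cnksr3 by 0.25 (0.0296).

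Of 30 mature myelin genes listed, 24 were measured. Over all exposed arrays, where 0.38% of all probe sets were called, 5 rose and 0 fell. All 24 differences were above 0, as were 51.7% of those of all probe sets. The median was 0.14, the same to 2 decimals as that of the 10 genes. Cldn11, the tight junction protein of myelin, differed by 0.21 (limma adjusted p = 0.00193), Mag, a myelin adhesion protein, by 0.23 (0.0158), Cnp, a phosphodiesterase of myelinating cells, by 0.17 (0.0163) and Fa2h, which hydroxylates myelin lipids, by 0.25 (0.0273). In 250 ppm perinatal animals, where 0.452% of all probe sets were called, 10 of the 24 rose, with a median of 0.20. Klk6, a protease of oligodendrocytes (0.38, adjusted p = 0.00818), and Mobp, a structural myelin protein (0.27, 0.0158), were among them. Cldn11 (0.22, limma adjusted p = 0.0224), Mag (0.27, 0.0379) and Cnp (0.20, 0.0377) were also called higher in 250 ppm postnatal animals of both sexes. There 0.219% of all probe sets were called.

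Genes that work with single members were read from further lists. None of the 5 PDGF ligands and receptors besides Pdgfra was called by limma over all exposed arrays, with 1 at an unadjusted p under 0.05: Pdgfa, the ligand that drives precursor division, differed by 0.06 (adjusted p = 0.577). Of all probe sets, 0.38% were called and 7.66% had an unadjusted p under 0.05 in either direction. None of the 9 measured proteoglycans and partners related to Vcan and Cspg4 was called, with 0 at an unadjusted p under 0.05. The same counts held for the 8 receptors and enzymes of P2Y and leukotriene signalling related to Gpr17, whose median difference was -0.057. Of 6 measured glycosphingolipid genes around Ugt8, Fa2h was called, and Arsa, which degrades sulfatide, differed by 0.13 (limma adjusted p = 0.0902) and Cers2, a ceramide synthase, by 0.14 (0.303). None of 10 measured choline and phosphatidylcholine genes was called over all exposed arrays, with 0 at an unadjusted p under 0.05. Among the channels related to Tmem63a, Tmem63c differed by -0.01 and Piezo1 by 0.03.

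Markers of other cell types were set beside these differences. Over all exposed arrays limma called 0 of 9 astrocyte, 0 of 9 microglia, 0 of 11 neuron, 0 of 7 endothelial, 0 of 9 pericyte and smooth muscle, 0 of 9 fibroblast and 0 of 7 choroid plexus genes. At an unadjusted p under 0.05, the counts in either direction were 2, 3, 1, 1, 0, 1 and 0 in the same order, where 7.66% of all probe sets had such a p. List medians were 0.02 for astrocyte, 0.02 for microglia, 0.01 for neuron, 0.01 for endothelial, 0.03 for pericyte, 0.19 for fibroblast and -0.42 for choroid plexus genes. The mean level of the choroid plexus list ran from 6.65 to 10.87 in exposed arrays and from 6.41 to 10.66 in controls, and that of the fibroblast list from 7.87 to 9.14 and from 7.84 to 9.09. The choroid plexus median was -1.09 in 750 ppm perinatal and -1.24 in 250 ppm perinatal animals, with all 7 differences below 0 in both, and limma called 0 of 7 with 0 at an unadjusted p under 0.05. Of the astrocyte list, Gjb6 was called higher in female 750 ppm perinatal animals than in controls labelled female (0.42, limma adjusted p = 0.0475). Csf1r of the microglia list was called higher in postnatal than in perinatal 750 ppm males (0.22, adjusted p = 0.0496). In these comparisons 0.157% and 0.175% of all probe sets were called. The mean level of the neuron list ran from 11.62 to 11.72 in exposed arrays and from 11.64 to 11.72 in controls. The part that unequal tissue of these kinds has in the differences of the lineage genes was not tested.

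Within groups, the genes fell into those that followed mature myelin and those that did not. Group means were subtracted from each array, and each gene was correlated with the mean of the 24 myelin genes over the 40 arrays, as a description, since the arrays share their normalization and dissection. Pearson's r was 0.86 for Slc44a1, 0.85 for Ugt8, 0.83 for Sox10, 0.80 for Olig1, 0.80 for Bcas1 and 0.79 for Tmem63a. It was 0.43 for Gpr17, 0.35 for Vcan, 0.00 for Pdgfra and -0.19 for Cspg4. Gpr17 and Vcan were closer to the list of other lineage genes, at 0.58 and 0.47.

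**Figure D4:**
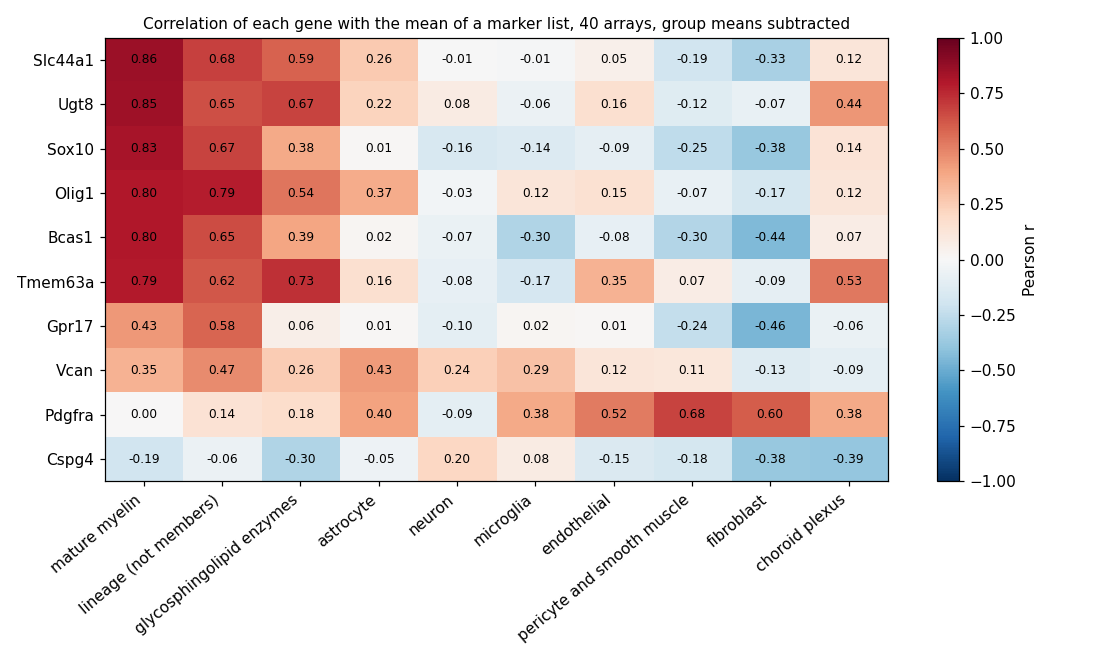
Pearson correlation of each gene with the mean of a marker list over 40 arrays after group means were subtracted. Slc44a1, Ugt8, Sox10, Olig1, Bcas1 and Tmem63a reach 0.79 to 0.86 with mature myelin genes, and Pdgfra has its highest values with pericyte (0.68) and fibroblast genes (0.60).

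Pdgfra, which fibroblasts around blood vessels also express, correlated with the pericyte and smooth muscle list at 0.68, with the fibroblast list at 0.60 and with the endothelial list at 0.52. Cspg4, which pericytes also express, correlated with the pericyte list at -0.18. Tmem63a correlated with the choroid plexus list at 0.53 and Ugt8 at 0.44, beside their values of 0.79 and 0.85 with myelin genes. The mean level of the choroid plexus list was 8.23 ± 1.62 in female and 7.93 ± 1.27 in male 750 ppm perinatal animals, 7.49 ± 1.34 in female and 8.29 ± 1.32 in male 250 ppm perinatal animals, and 9.11 ± 1.81 and 8.97 ± 1.82 in controls labelled female and male (SD, n = 4 each). All these SDs were above 1, and none of the 7 genes had an unadjusted p under 0.05 at either perinatal dose, both sexes together. The part of the choroid plexus list in the Tmem63a and Ugt8 differences was not tested.

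The 45 pairs among the 10 genes had a median r of 0.35 (range -0.33 to 0.86), and 36 were above 0. Among the 6 genes that followed the myelin list, grouped here after their values were seen, the 15 pairs had a median of 0.64 and ranged from 0.55 to 0.86. The closest pair was Bcas1 with Sox10. The 9 pairs with Pdgfra had a median of -0.13 and the 9 with Cspg4 of -0.09, and the correlation between these precursor markers was -0.13. Over the 10 group means, the median of the 45 pairs was 0.59 and 44 were above 0. Without subtracting group means, the median over arrays was 0.48.

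**Figure D5:**
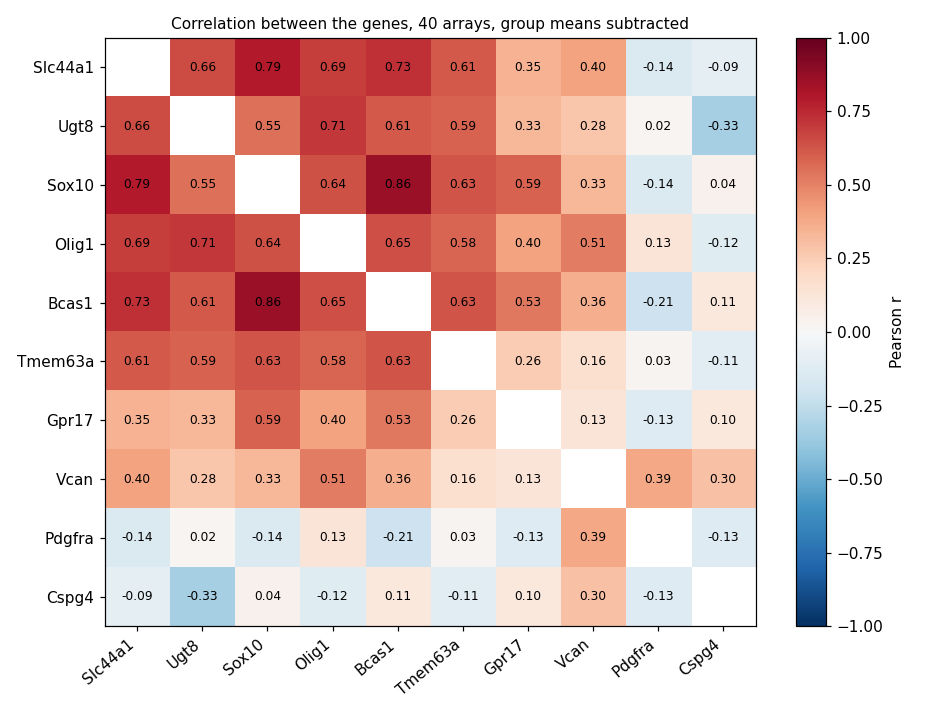
Pearson correlation between the 10 genes over 40 arrays after group means were subtracted. The block of Slc44a1, Ugt8, Sox10, Olig1, Bcas1 and Tmem63a has values of 0.55 to 0.86, while the values of Pdgfra and Cspg4 lie between -0.33 and 0.39.

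Among all genes with a probe set of their own, those most like the members were found by the same measure over 40 arrays. For Ugt8 they were Fa2h (0.85), Evi2a (0.84) and Myo1d (0.82), and for Slc44a1 Mag (0.85), Nkd1 (0.84) and Mal (0.84). For Tmem63a they were Myo1d (0.82), Myo1e (0.81) and Pld1 (0.78), for Bcas1 Sox10 (0.86), Mobp (0.85) and Creb5 (0.85), for Sox10 Rffl (0.88), Cdc42ep1 (0.88) and Tmem88b (0.86), and for Olig1 Tmem88b (0.80), Pip4k2a (0.80) and S1pr5 (0.78). The 4 genes with weaker ties to myelin had other neighbours. Gpr17 was closest to Pm20d2 (0.77), Prr18 (0.75) and Wipf1 (0.70), and Vcan to Enoph1 (0.70), Il18 (0.69) and Cntf (0.68). Pdgfra was closest to Itga1 (0.75), Gpx8 (0.73) and Cdh5 (0.73), the last an endothelial cadherin, and Cspg4 to Ttll11 (0.82), Pitpnm2 (0.76) and Fry (0.76). The mean of the 10 genes was closest to Rffl (0.93), Tmem88b (0.90), Mag (0.90), Lpar1 (0.88), Nkd1 (0.87), S1pr5 (0.86), Gna12 (0.86), Rnf43 (0.85), Fa2h (0.85) and Pde8a (0.85).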

How the data were processed

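The deposited values are log2 signals per probe set, which the authors made with RMA and Partek, per the submitters' processing notes, with no version or setting named there. RMA corrects background, equalises array distributions and summarises probes, which brings arrays close together and compresses small differences. The genome build of the authors is not given in the sources used here. Samples were grouped by their labels, and every column of the table was matched to 1 sample. Symbols came from the platform annotation, in which 15310 probe sets carried 1 symbol. The values were used as deposited.

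With limma 3.58.1 in R 4.3.3 (lmFit, contrasts, eBayes with a variance trend), all 40 arrays entered 1 fit with 10 group means. The two-sided p-values were adjusted by Benjamini-Hochberg over all 29214 probe sets within each of 26 contrasts, and a call is an adjusted p under 0.05. The fit was tested on simulated data. Figures were drawn with matplotlib 3.10.9. Beside the 10 genes, list genes are named only if called in any contrast (at most 6 per list) or among the 3 of smallest p over all exposed arrays. Not all genes that meet this rule are named. The 3 genes most like each member are named too. The members and the lists were chosen with earlier results of these data known. Alternatives left out arrays or dim probe sets, normalized again, weighted arrays, dropped the variance trend or changed the groups in the fit. Leaving out single arrays in the dose and window comparisons was added after seeing the data. The number of arrays limits the precision.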

Additional observations from a re-analysis of the deposited data

Results flagged for a closer look

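Of 100 sets of 4 arrays (10 genes in 10 groups), 7 had an extreme array whose gap to its nearest neighbour, as a share of the group's range, exceeded Dixon's 95% critical value, which chance gives in about 1 of 20 sets. The highest array stood apart for Pdgfra in female 750 ppm postnatal animals (9.59, others at most 9.46), for Cspg4 in female 250 ppm postnatal animals (8.18, others at most 7.98), for Vcan in female 750 ppm perinatal animals (8.98, others at most 8.86), for Vcan in controls labelled male (8.90, others at most 8.71) and for Ugt8 in controls labelled female (10.38, others at most 10.25). The lowest array stood apart for Gpr17 (9.26, others at least 9.44) and for Vcan (8.68, others at least 8.96) in female 250 ppm postnatal animals, on the same array, replicate 3. The Vcan control is replicate 4 labelled male and the Ugt8 control is replicate 3 labelled female, both among the 3 whose Eif2s3 level did not match their label.

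Among perinatally exposed males the Tmem63a difference between 750 ppm and 250 ppm passed its own test at -0.82. The call was lost without the 3 flattened arrays, all in these groups (limma adjusted p = 0.0719), and with array weights (0.0928), and dose and run of animal numbers cannot be told apart. In females the same difference was -0.51 and was not called.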

How the results depend on the processing

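No paired analysis was possible because the numbers in the titles are animal numbers that pair no samples between groups. Each gene has 1 probe set, so averaging probe sets gave no other value. Of 2746 values of single genes under alternatives, 2615 kept their direction and side of the threshold, 94 lost a call, 15 gained one and 22 changed sign. The median difference of the 10 genes never moved by more than 0.0628. This yardstick is the within-group SD of the median level of the 10 genes on an array, not the spread of the median difference. Counts of called genes moved as follows. Over all exposed arrays, 4 became 2 without a variance trend and 0 without the mismatched controls, and 0 to 4 with single arrays left out. In 250 ppm perinatal animals of both sexes, 5 became 3 with array weights, 3 without a variance trend, 2 without the mismatched controls and 3 with the compared groups only, and 3 to 5 with single arrays left out (3 without male control replicate 3, female control replicate 2, 3 or 4, male 250 ppm perinatal replicate 2 or 3, or female 250 ppm perinatal replicate 1, 3 or 4). In male 250 ppm perinatal animals, 2 became 0 with array weights, 1 without a variance trend, 0 without the mismatched controls, 0 without the flattened arrays and 0 with the compared groups only, and 0 to 1 with single arrays left out. For the male perinatal dose difference, 1 became 0 with array weights (Tmem63a -0.70, limma adjusted p = 0.0928) and 0 without the flattened arrays. Counts of 0 became 1 in female 750 ppm perinatal animals with array weights and with the pooled controls, 1 in both sexes at 750 ppm perinatal, 2 at 250 ppm postnatal and 2 at 750 ppm postnatal with array weights, and 1 at 250 ppm postnatal without the dimmest 40% of probe sets. With single arrays left out they ran from 0 to 1 at 750 ppm perinatal (1 without male control replicate 4 or female control replicate 1), 0 to 2 at 250 ppm postnatal (2 without male 250 ppm postnatal replicate 1, 1 without female control replicate 2 or female 250 ppm postnatal replicate 3) and 0 to 1 at 750 ppm postnatal (1 without male 750 ppm postnatal replicate 3). The cause was not tested. Of all probe sets, 111 were called over all exposed arrays, against 71 without a variance trend and 38 without the mismatched controls, and 43 to 125 with single arrays left out (43 without female control replicate 3, 45 without female control replicate 4, 46 without male control replicate 2, 47 without male control replicate 3 and 67 without female control replicate 2). In 250 ppm perinatal animals of both sexes 132 were called, against 61 without the mismatched controls and 58 with the compared groups only, and 48 to 155 with single arrays left out (48 without male control replicate 3, and 70 to 84 without male control replicate 1, female control replicate 3 or 4, male 250 ppm perinatal replicate 2, or female 250 ppm perinatal replicate 1, 3 or 4). In male 250 ppm perinatal animals 26 were called, against 10 with array weights, 13 without the mismatched controls, 5 without the flattened arrays and 7 with the compared groups only. In female 750 ppm perinatal animals 46 were called, against 112 with array weights, 114 with pooled controls, 6 without the mismatched controls and 14 with the compared groups only. For the male perinatal dose difference 12 were called, against 0 with array weights and 1 without the flattened arrays, and 3 to 21 with single arrays left out. The shares of probe sets called move with these counts.

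No called difference changed sign. Without the mismatched controls Tmem63a was at -0.077 in female 750 ppm perinatal, -0.047 in male 250 ppm postnatal and -0.016 in both sexes at 250 ppm postnatal. With single arrays left out, these uncalled differences crossed 0. Bcas1 ran from -0.012 to 0.078 in female 750 ppm postnatal animals, Sox10 from -0.017 to 0.103 and Tmem63a from -0.060 to 0.128 in female 750 ppm perinatal animals, and Pdgfra from -0.053 to 0.019 in female 250 ppm perinatal animals. Tmem63a ran from -0.096 to 0.033 in male 750 ppm postnatal animals and from -0.092 to 0.082 in male 250 ppm postnatal animals, where Cspg4 ran from -0.010 to 0.120. In male 750 ppm perinatal animals Bcas1 ran from -0.027 to 0.062, Olig1 from -0.0088 to 0.052 and Ugt8 from -0.017 to 0.090.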
